A study of Mus musculus with 16 samples.

Results

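The sortilin family of sorting receptors has 5 members in the mouse, *Sort1*, *Sorl1*, *Sorcs1*, *Sorcs2* and *Sorcs3*, and all 5 of the 32285 genes in the gene expression rows of the deposited matrices that carry these symbols were taken. The family was chosen by the measured RNA level of *Sorcs3*, which had stood out in an earlier look at these nuclei, so its level in granule cells (GCs), its difference between genotypes and its overlap with the opioid peptide gene *Penk* are given as a description, without a test. The nuclei came from the microdissected, frozen dentate gyrus (DG) of 8 mice, 4 wild-type (WT, labelled VV) and 4 with the V321L missense mutation of neuregulin 1 (V321L, labelled LL), with 2 females and 2 males of each genotype. The mutation is not limited to a cell type by any driver that the sources name, and the labels give no age, litter or dissection date. Each mouse gave 1 Multiome library, in which the RNA and the accessible chromatin (ATAC) are read from the same nucleus. The mouse is the replicate throughout, and nuclei of a mouse are not.

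Sortilin family receptors are transmembrane proteins with a propeller-shaped VPS10 domain that binds cargo in the Golgi, at the cell surface and in endosomes, and a short cytoplasmic tail that hands the cargo to sorting adaptors. *Sort1* encodes sortilin, which binds proneurotrophins together with the p75 receptor, takes up progranulin and binds neurotensin. *Sorl1* encodes SORLA, which returns amyloid precursor protein to the Golgi with the retromer complex and is a risk gene for Alzheimer disease. *Sorcs1* sorts neurexin and AMPA receptors to the neuronal surface, *Sorcs2* acts with the p75 receptor in the response to proneurotrophins, and *Sorcs3* is a postsynaptic receptor that binds the PDZ protein Pick1. In the hippocampus all 3 Sorcs genes have been tied to synaptic plasticity.

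The 5 genes lie at 4 chromosomes and differ widely in length. In the RefSeq annotation of GRCm38.p6, *Sort1* (ENSMUSG00000068747) is at chr3:108283974-108361519 and *Sorl1* (ENSMUSG00000049313) at chr9:41964709-42124297. *Sorcs2* (ENSMUSG00000029093) is at chr5:36017180-36398197. *Sorcs3* (ENSMUSG00000063434) and *Sorcs1* (ENSMUSG00000043531) are both on chromosome 19, at chr19:48206025-48805505 and chr19:50143295-50679129. Their spans are 77546 bases for *Sort1*, 159589 for *Sorl1*, 381018 for *Sorcs2*, 535835 for *Sorcs1* and 599481 for *Sorcs3*, introns included. *Sorcs1* and *Sorcs3* are thus among the longest genes measured here. The 250 bases before the start site are shown for the 3 members that have a promoter entry at the start used in the matrices. The sequences are from RefSeq, read along the strand of the gene, with each CG in capitals. The windows are chr19:50678647-50678896 on the minus strand for *Sorcs1*, chr19:48205775-48206024 on the plus strand for *Sorcs3* and chr9:42124298-42124547 on the minus strand for *Sorl1*. The *Sorcs1* window lies before the start used in the matrices but within the RefSeq span of the gene, which reaches further.
Sorcs1: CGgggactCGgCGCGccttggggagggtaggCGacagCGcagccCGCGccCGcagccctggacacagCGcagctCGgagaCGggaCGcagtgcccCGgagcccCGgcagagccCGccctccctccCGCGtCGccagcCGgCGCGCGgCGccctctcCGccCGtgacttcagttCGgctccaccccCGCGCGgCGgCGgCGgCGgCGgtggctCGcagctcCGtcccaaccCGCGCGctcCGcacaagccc
Sorcs3: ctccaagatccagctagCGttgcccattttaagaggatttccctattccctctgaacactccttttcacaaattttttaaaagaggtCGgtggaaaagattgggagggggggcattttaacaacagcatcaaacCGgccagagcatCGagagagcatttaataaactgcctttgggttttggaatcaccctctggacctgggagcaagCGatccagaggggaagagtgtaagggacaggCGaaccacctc
Sorl1: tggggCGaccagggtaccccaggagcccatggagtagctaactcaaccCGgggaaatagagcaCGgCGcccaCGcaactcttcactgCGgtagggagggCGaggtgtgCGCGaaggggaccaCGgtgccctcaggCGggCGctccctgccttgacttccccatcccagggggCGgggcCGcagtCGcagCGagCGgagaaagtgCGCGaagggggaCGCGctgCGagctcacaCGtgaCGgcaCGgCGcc
The *Sorcs1* window holds 41 CG, more than 98.9% of the 32851 promoter windows of this length in the RefSeq set. The *Sorcs3* window holds 6, which is the median of that set, and the *Sorl1* window 26, more than 90.4%. The letters GGGCGG, searched on both strands, were found 2 times before *Sorcs1*, 1 time before *Sorl1* and not before *Sorcs3*, and 32.7% of all windows hold them. TATAAA, also searched on both strands, was found in none of the 3 windows and is held by 12.4% of all windows. The promoter pair on chromosome 19 thus differs in base composition. *Sort1* and *Sorcs2* have no entry at the start used in the matrices.

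After the filters 16360 nuclei remained, 1776 to 3600 from each WT mouse and 1445 to 1973 from each V321L mouse. Nuclei were placed in 12 classes by marker genes, and 11016 of them were GCs, 10631 of which also fell in GC clusters. Of the other GCs 101 fell in microglia, 74 in oligodendrocyte and 65 in astrocyte clusters. Every marker fixed for each of these 12 classes was detected in that class, which had itself been placed by them. Highest in their own class were 7 of 10 GC, 6 of 9 markers in each GABAergic class, 5 of 6 CA1-like, 6 of 7 astrocyte and all other markers. Left out were 4 nuclei placed as mossy cells, with 1 of 5 mossy markers detected, and 941 without a clear class. Clusters called 53 of these 941 mossy, 402 CA3-like and 199 CA1-like, and also called 29 CA1-like and 29 CA3-like nuclei mossy. Depth differed between the genotypes. The median number of RNA molecules (unique molecular identifiers, UMIs) per GC ran from 1072 to 1934 in WT mice and from 3149.5 to 4672.5 in V321L mice, and the median mitochondrial share of all nuclei ran from 0.0695% to 0.128% against 0.389% to 1.17%. A library shared at most 12 nucleus barcodes with another. No source says that the libraries of a genotype were made together or apart, so the part of a library effect in any difference between genotypes was not tested. With summed nuclei, fewer expressing cells and less RNA per cell cannot be told apart from the sum alone.

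The members had different homes among the classes. *Sorcs1* was highest in the oligodendrocyte lineage, *Sorcs3* in GABAergic neurons marked by *Adarb2* and *Vip* (CGE type), oligodendrocyte precursors (OPCs) and CA1-like neurons, *Sorcs2* in astrocytes, GCs and immature granule neurons, *Sorl1* in CA1-like neurons and GCs, and *Sort1* was spread over most classes. Levels are given as CPM, the UMIs of a gene scaled to one fixed total of UMIs in every sum over the nuclei of a class in a mouse, with the SD over mice that had at least 10 nuclei of the class, and they are compared between classes and not between genes.

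*Sorcs1* stood at 796 ± 149 CPM in OPCs and 734 ± 248 CPM in oligodendrocytes (SD, n = 8 each). In OPCs the 4 WT mice held 859, 745, 581 and 1099 CPM and the 4 V321L mice 735, 785, 838 and 727 CPM. All 8 values were above every GC value, which lay between 5.56 and 24.4 CPM. A UMI of *Sorcs1* was present in 64.3% of the OPC nuclei and 48.6% of the oligodendrocyte nuclei, against 0.651% of microglia, which have a similar depth with a median of 929 UMIs per nucleus against 1584 in OPCs and 1050 in oligodendrocytes. GABAergic neurons of the CGE type held 387 ± 311 CPM (n = 5), a mean that 1 WT male with 935 CPM raised. CA1-like neurons were uneven, with 34.1, 207, 131 and 10.8 CPM in WT mice and 5.98, 84.4, 345 and 14.95 CPM in V321L mice. In both genotypes female 2 and male 1 were high and female 1 and male 2 low. GCs held 15.7 ± 6.98 CPM, below astrocytes with 25.02 ± 11.4 CPM. In vascular nuclei a UMI of *Sorcs1* was found in 0 of 79 nuclei of 3 mice, which allows a share of up to 3.80% by counting error alone.

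*Sorcs3* was highest in CGE-type GABAergic neurons, at 842 ± 110 CPM (n = 5), with a UMI in 75.8% of those nuclei. OPCs followed with 442 ± 56.9 CPM and a UMI in 48.3% of nuclei. The OPC values of the 8 mice lay between 372 and 520 CPM and overlapped between genotypes. CA1-like neurons held 335 ± 125.5 CPM and GABAergic neurons marked by *Lhx6* and *Nxph1* (MGE type) 124.6 ± 50.2 CPM. Below these came oligodendrocytes with 112 ± 59.5 CPM, GCs with 89.5 ± 34.5 CPM and CA3-like neurons with 77.4 ± 51.3 CPM (n = 7). Clusters did not part the CGE type from the MGE type and placed 109 CGE-type nuclei with the MGE type. Astrocytes and radial glia held 10.4 ± 14.9 CPM, with a UMI in 0.885% of nuclei at a median of 1285 UMIs, compared with 10.7% of GCs at a median of 2330 UMIs. *Sorcs1* and *Sorcs3* therefore met in OPCs, and parted in oligodendrocytes, where *Sorcs1* was near its maximum and *Sorcs3* was not.

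*Sorcs2* had a flatter profile, with 110 ± 59.8 CPM in astrocytes and radial glia, 75.1 ± 12.2 CPM in GCs and 74.4 ± 42.1 CPM in immature granule neurons (n = 5). Immature granule neurons came first with classes from clusters, at 119 ± 61.1 CPM (n = 8), and with nuclei thinned to 1000 UMIs, at 143 ± 57.9 CPM (n = 4, all V321L), where CGE-type neurons had 127 CPM and GCs 69.9 CPM. The astrocyte mean rests in part on 1 V321L male with 255 CPM, while the other 7 mice lay between 71.1 and 106 CPM. GC values ran from 58.1 to 92.7 CPM, the narrowest range of this gene in any class with 8 mice relative to its mean. OPCs with 15.7 ± 19.8 CPM, oligodendrocytes with 23.0 ± 39.7 CPM and microglia with 11.985 ± 21.6 CPM were at the lower end. *Sorcs2* was thus low in the oligodendrocyte lineage, where *Sorcs1* was highest. In CGE-type neurons, which came 3rd for *Sorcs1* with 387 CPM, *Sorcs2* stood at 58.7 CPM and came 4th. A UMI of *Sorcs2* was present in 15.7% of GCs, 13.5% of astrocytes and radial glia and 0.977% of microglia.

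*Sorl1* was held at 205 ± 72.3 CPM in CA1-like neurons, 197 ± 16.9 CPM in GCs and 164 ± 41.2 CPM in astrocytes and radial glia. The GC values of all 8 mice lay between 182 and 235 CPM. OPCs held 34.8 ± 64.9 CPM, a mean set by 1 WT male with 194 CPM from 3 UMIs in 18 nuclei, and the other 7 mice had between 0 and 28.7 CPM. *Sorl1* was thus low in OPCs, in which *Sorcs1* and *Sorcs3* were both high, with a UMI in 2.15% of OPCs against 36.4% of GCs. CGE-type neurons, with 387 CPM of *Sorcs1* and 842 CPM of *Sorcs3*, held 102 ± 53.6 CPM of *Sorl1* (n = 5).

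A UMI of *Sort1* was found in every class. It stood at 259 ± 128 CPM in oligodendrocytes, 205 ± 74.2 CPM in CA1-like neurons, 180 ± 106 CPM in microglia, 179 ± 38.4 CPM in CA3-like neurons and 176 ± 36.7 CPM in GCs. OPCs with 40.3 ± 24.6 CPM and Cajal-Retzius cells with 35.6 ± 35.01 CPM were the lowest, from 25 UMIs in 325 nuclei and 4 UMIs in 70 nuclei. Barcodes of at most 100 UMIs, which hold RNA free in the suspension, had 115 to 201 CPM of *Sort1*. What free RNA adds to these low levels was not tested. A UMI of *Sort1* was present in 33.3% of GCs and 7.08% of OPCs.

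Neighbours in these orders were mostly not told apart with the mice at hand. Neighbouring classes were compared within mice by a two-sided exact sign-flip permutation test on log2(CPM + 10). For the members other than *Sorcs3* no pair passed after Benjamini-Hochberg adjustment over all 55 pairs, and 3 had an unadjusted p under 0.05. The smallest p that this test allows is 0.00781 with 8 mice, 0.0625 with 5 and 0.25 with 3. No pair could thus pass adjustment on its own, and no likeness of neighbours is read from it. *Sorcs3*, as a description, was higher in CA1-like than in MGE-type neurons in 8 of 8 mice. *Sorcs2* was higher in astrocytes than in GCs in 7 of 8 mice (exact p = 0.0156) and *Sorl1* higher in GCs than in astrocytes in 7 of 8 mice (exact p = 0.0234). The orders of classes are therefore read only in their wide steps.

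**Figure D1:**
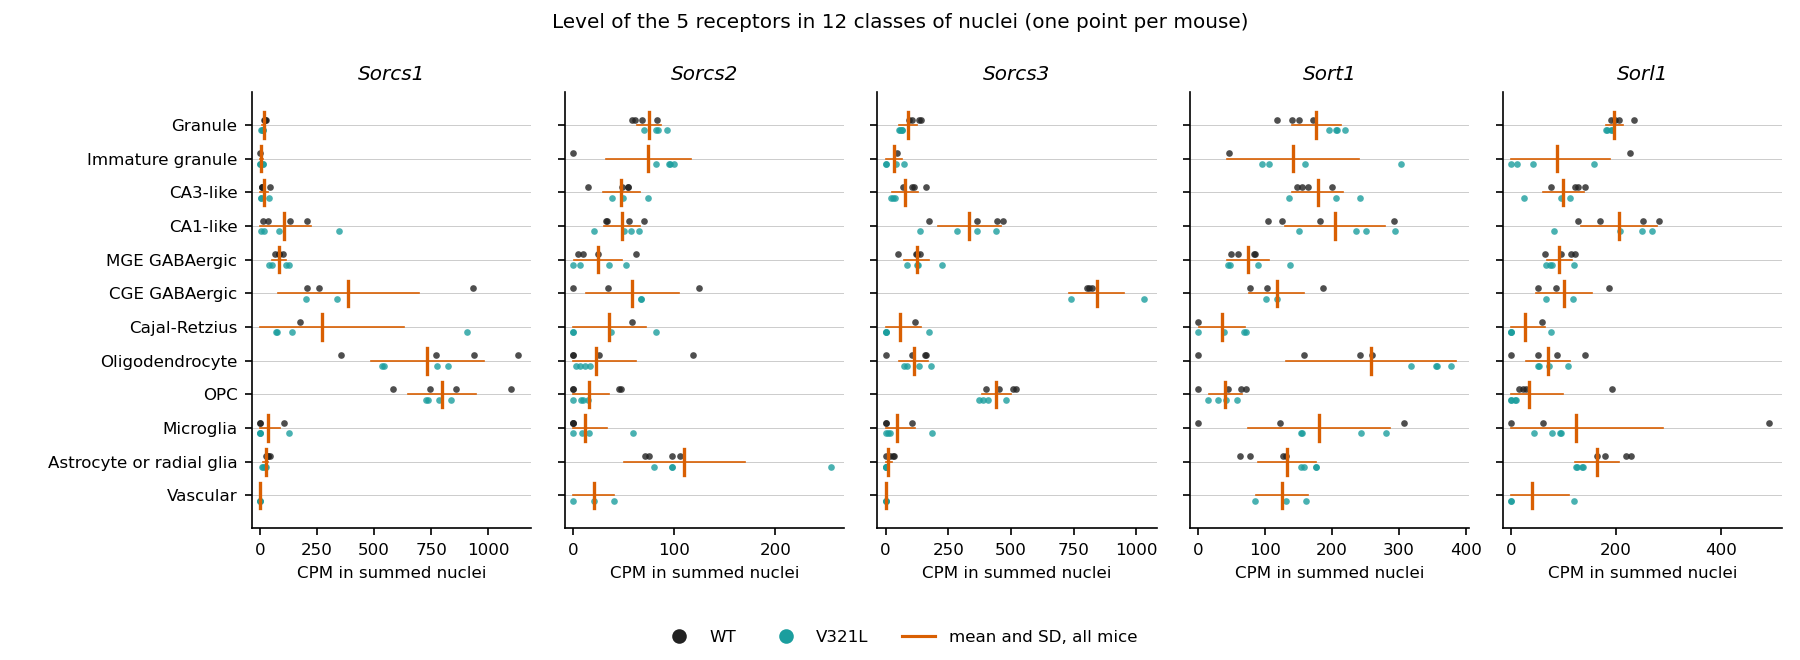
Level of each member in CPM (horizontal axis) in 12 cell classes, with 1 panel per gene, 1 point per mouse with at least 10 nuclei of the class, and the mean and SD over mice in orange. *Sorcs1* peaks in OPCs and oligodendrocytes at 796 and 734 CPM, *Sorcs3* in CGE-type neurons at 842 CPM, and *Sort1* is spread over most classes.

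Accessible chromatin at the start site gave a readout that was not used to choose the family. ATAC counts within 1 kb of the start were expressed as CPM of all counts in peaks of the same nuclei (ATAC CPM). At *Sorcs1* they were highest in oligodendrocytes with 58.1 ± 38.8 and OPCs with 39.1 ± 23.7 ATAC CPM, compared with 6.21 ± 1.85 in GCs and 0 in microglia and vascular nuclei. At *Sorcs3* CGE-type neurons had 57.5 ± 53.4 (n = 4), OPCs 45.2 ± 44.8 and CA1-like neurons 25.03 ± 30.1, compared with 14.5 ± 8.58 in GCs (n = 7), since the library of WT male 2 had no peak there. At *Sorcs2* the values were 42.9 ± 30.6 in CGE-type neurons, 36.6 ± 18.2 in astrocytes, 34.4 ± 29.2 in OPCs and 23.4 ± 3.44 in GCs. At *Sorl1* CGE-type neurons had 42.6 ± 41.6, GCs 29.7 ± 7.62 and OPCs 5.22 ± 7.67 ATAC CPM. At *Sort1* CGE-type neurons had 89.1 ± 66.6, oligodendrocytes 87.0 ± 80.3 and GCs 38.8 ± 6.52 ATAC CPM. The order of the top classes was the same in RNA and ATAC for *Sorcs3*, whereas for *Sorcs1* OPCs led in RNA and oligodendrocytes in ATAC, with spreads that overlap. The orders differed for the others: OPCs ranked 3 of 12 classes in ATAC and 11 in RNA for *Sorcs2*, CGE-type neurons led in ATAC but not in RNA for *Sorcs2*, *Sorl1* and *Sort1*, and GCs were last in ATAC for *Sort1*. Each library has its own peak set, which limits comparison across mice.

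Across 65 sums of a class in a mouse, over 12 classes, the genes whose log2(CPM + 10) was most like that of each member were found among 13020 genes. For *Sorcs1* they were *Cobl* (Pearson r = 0.861), *Gjc3* (0.831), a gap junction gene of oligodendrocytes, and *Bcas1os2* (0.810). For *Sorcs3* they were *Zdhhc2* (0.788), *Cntn4* (0.737), which encodes a contactin, and *Epb41l4b* (0.729). *Sorcs2* was most like the GABA receptor subunit genes *Gabrb1* (0.695) and *Gabra2* (0.650), and *Mical2* (0.635). *Sorl1* was most like *Acap2* (0.694), *St6galnac5* (0.668) and the clock gene *Arntl* (0.664), and *Sort1* like *Mast3* (0.649), *Arhgap39* (0.637) and again *Acap2* (0.603). Among the members *Sorcs1* and *Sorcs3* had r = 0.610, *Sort1* and *Sorl1* 0.443, and *Sorcs1* and *Sorcs2* -0.498. The sums share mice, libraries and depth, so these values describe likeness and have no p.

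In GCs, *Sorcs1* was lower in V321L than in WT mice, and *Sorl1* was lower by a smaller step that depended on the scaling. In the fit over all genes (edgeR quasi-likelihood test on summed UMIs, Benjamini-Hochberg adjustment over 12350 genes) 8690 genes were called, which is 70.4% of those tested, with 31.8% lower and 38.6% higher in V321L mice. When library sizes replaced the TMM scaling, 71.8% were called, 17.9% lower and 53.9% higher, since the median log2 fold change over all genes moved from 0.11 to 0.55. A call is thus common in this comparison, and the members are read by size and per mouse. The share of all genes whose groups do not overlap in CPM was not counted. A lack of overlap therefore does not set a member apart from other genes.

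*Sorcs1* was held at 20.5, 23.1, 18.0 and 24.4 CPM in the GCs of the 4 WT mice and at 14.1, 5.56, 12.5 and 7.54 CPM in those of the 4 V321L mice. Every V321L value was below every WT value. The log2 fold change was -1.61 (SE 0.264, adjusted p = 0.000101, edgeR) with means of 21.5 ± 2.87 and 9.94 ± 4.05 CPM (SD, n = 4 each). With GCs from clusters the means were 17.8 ± 3.34 CPM in WT and 10.0 ± 4.05 CPM in V321L mice. The log2 fold change was -1.15 with library sizes alone (adjusted p = 0.00173, edgeR). It was -1.81 after GCs with at least 1000 UMIs were thinned to 1000 (adjusted p = 0.000117, where 66.1% of genes were called). The GCs with fewer UMIs, which were mostly WT, were dropped there.

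*Sorl1* stood at 235, 191, 199 and 206 CPM in WT and at 184, 190, 182 and 192 CPM in V321L mice. The groups overlapped by a narrow margin. The log2 fold change was -0.59 (SE 0.0998, adjusted p = 0.000124, edgeR), and -0.15 with library sizes alone (adjusted p = 0.118), at which the call was lost.

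*Sort1* stood at 151, 118, 172 and 140 CPM in WT and at 196, 219, 206 and 207 CPM in V321L mice. The groups did not overlap in CPM, and yet the TMM-scaled log2 fold change was 0.09 (SE 0.0931, adjusted p = 0.419, edgeR), because the change in scaling is about as large as the difference. With library sizes alone it was 0.52 (adjusted p = 0.000910). *Sorcs2* stood at 58.1, 83.2, 68.6 and 61.2 CPM in WT and at 70.7, 92.7, 83.8 and 82.2 CPM in V321L mice. Its groups overlapped, and its log2 fold change was -0.18 (SE 0.154, adjusted p = 0.313) with TMM and 0.28 (adjusted p = 0.0773) with library sizes, so that no direction can be given.

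For *Sorcs3*, as a description, the GCs of WT mice held 140, 134, 107 and 94.0 CPM and those of V321L mice 64.3, 65.4, 57.7 and 54.1 CPM. The groups did not overlap, and the log2 fold change was -1.43 (SE 0.159), -0.98 with library sizes alone. The genes that the study names with *Sorcs3* differed in direction. In the same sums *Penk* stood at 6.59 ± 3.29 CPM in WT and 25.9 ± 5.55 CPM in V321L mice, the synaptic pentraxin gene *Nptx2* at 1.94 ± 0.918 and 9.43 ± 1.78 CPM, and *Nrg1* itself at 781 ± 106 and 503 ± 81.9 CPM. *Sorcs3* and *Penk* thus differed between the genotypes in opposite directions, and they were found in the same GCs, as described in the paragraph on *Penk*. Over all genes the difference went with gene length, as given below. What length adds to the contrast of these genes was not tested. Barcodes of at most 100 UMIs, which hold RNA free in the suspension, had 11.4 to 22.9 CPM of *Penk* in WT mice. In V321L mice they had 21.6 to 49.3 CPM. The WT values were above the mean WT level in GCs. What free RNA adds to the GC level of *Penk* was not tested.

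**Figure D2:**
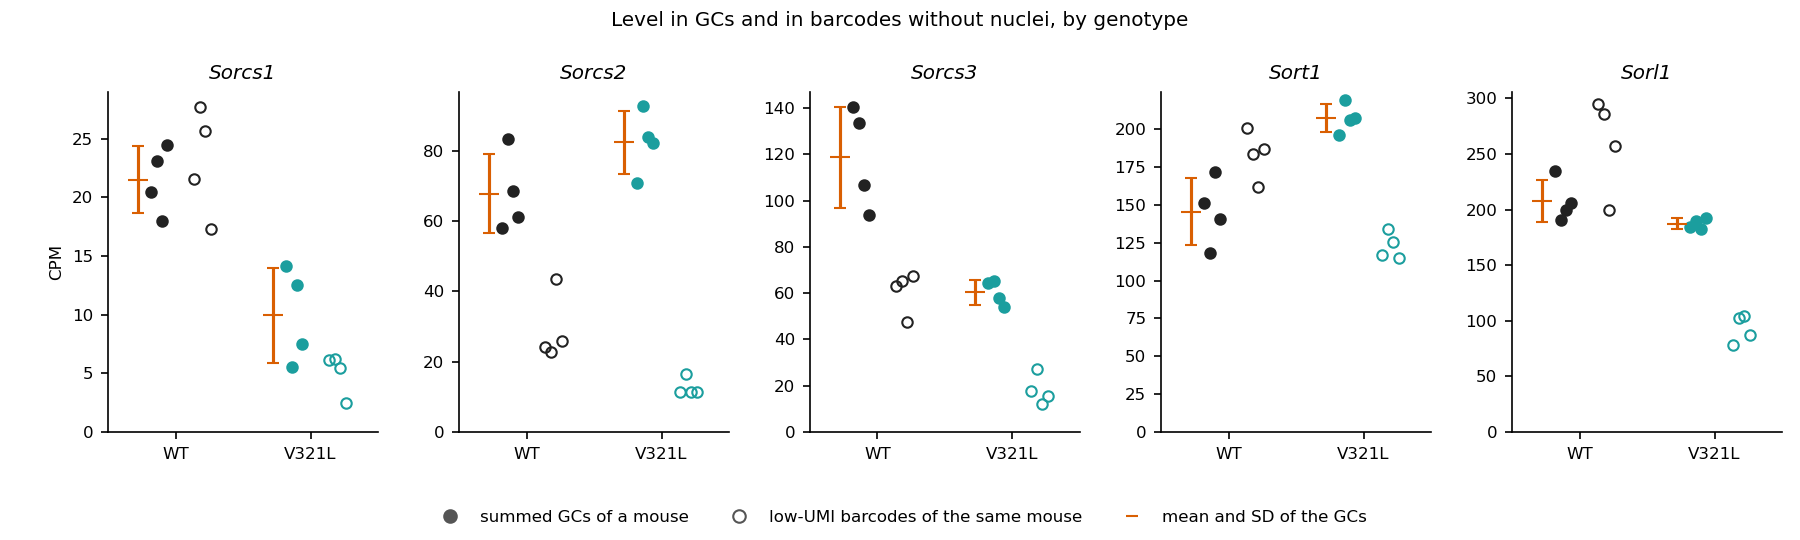
Level of each member in CPM (vertical axis) in WT and V321L mice, with filled points for the summed GCs of a mouse, open points for its barcodes of at most 100 UMIs, and bars for the mean and SD over 4 mice. *Sorcs1* and *Sorcs3* are lower in V321L GCs without overlap, *Sort1* is higher without overlap, and the open points of every member are lower in V321L mice. The share of all genes without overlap was not counted.

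Barcodes with at most 100 UMIs, which hold RNA that is free in the suspension, moved with the same groups. Their *Sorcs1* level was 17.3 to 27.7 CPM in WT and 2.47 to 6.20 CPM in V321L mice, and that of *Sorcs3* 47.4 to 67.4 CPM against 12.2 to 27.4 CPM. *Sorl1* stood there at 200 to 295 CPM in WT and 78.6 to 104 CPM in V321L mice, and *Sort1* at 162 to 201 and 115 to 134 CPM. Markers of oligodendrocytes, microglia and vascular cells in GCs put an upper bound on the share of free RNA among GC UMIs of 20.1% to 34.7% in WT against 8.70% to 16.4% in V321L mice. With that much taken off, the mean GC levels left were 15.3 CPM in WT and 9.30 CPM in V321L mice for *Sorcs1*, and 103 and 58.1 CPM for *Sorcs3*. For *Sorl1* they were 140 and 175 CPM, and for *Sort1* 96.8 and 191 CPM. These levels are per total of GC UMIs before the removal and were not rescaled to the UMIs left. As more was taken off in WT mice, WT levels are lowered more by the calculation itself. No direction is therefore read from *Sorl1* or *Sort1* here. At this bound *Sorcs3* kept no overlap between the groups, with at least 76.6 CPM in WT and at most 63.0 CPM in V321L mice. *Sorcs1* kept the lower V321L mean, but its groups overlapped, with 9.06 to 19.99 CPM in WT and 5.02 to 13.1 CPM in V321L mice.

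The difference between genotypes also went with gene length, in these nuclear RNA data, over all genes. The median log2 fold change in GCs was 1.70 for genes that span under 10 kb, 0.33 for 10 to 50 kb, -0.38 for 50 to 100 kb, -0.69 for 100 to 200 kb, -0.92 for 200 to 400 kb and -1.15 for the 331 genes over 400 kb, of which 97.9% were called lower. A span was found for 94.6% of the tested genes. *Sorcs1* and *Sorcs3*, at -1.61 and -1.43, stood within the range of genes of their length: 14.5% and 26.0% of the genes over 400 kb were lower still. *Sorl1*, at -0.59, was near the median of its bin, where 56.6% of genes were lower. *Sorcs2* was the exception among the long members: at 381 kb it stood at -0.18, and 93.0% of the genes of 200 to 400 kb were lower. In *Sort1*'s bin 77.1% of genes were lower. What the lower level of *Sorcs1* and *Sorcs3* owes to length or to what moves with it was not tested.

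**Figure D3:**
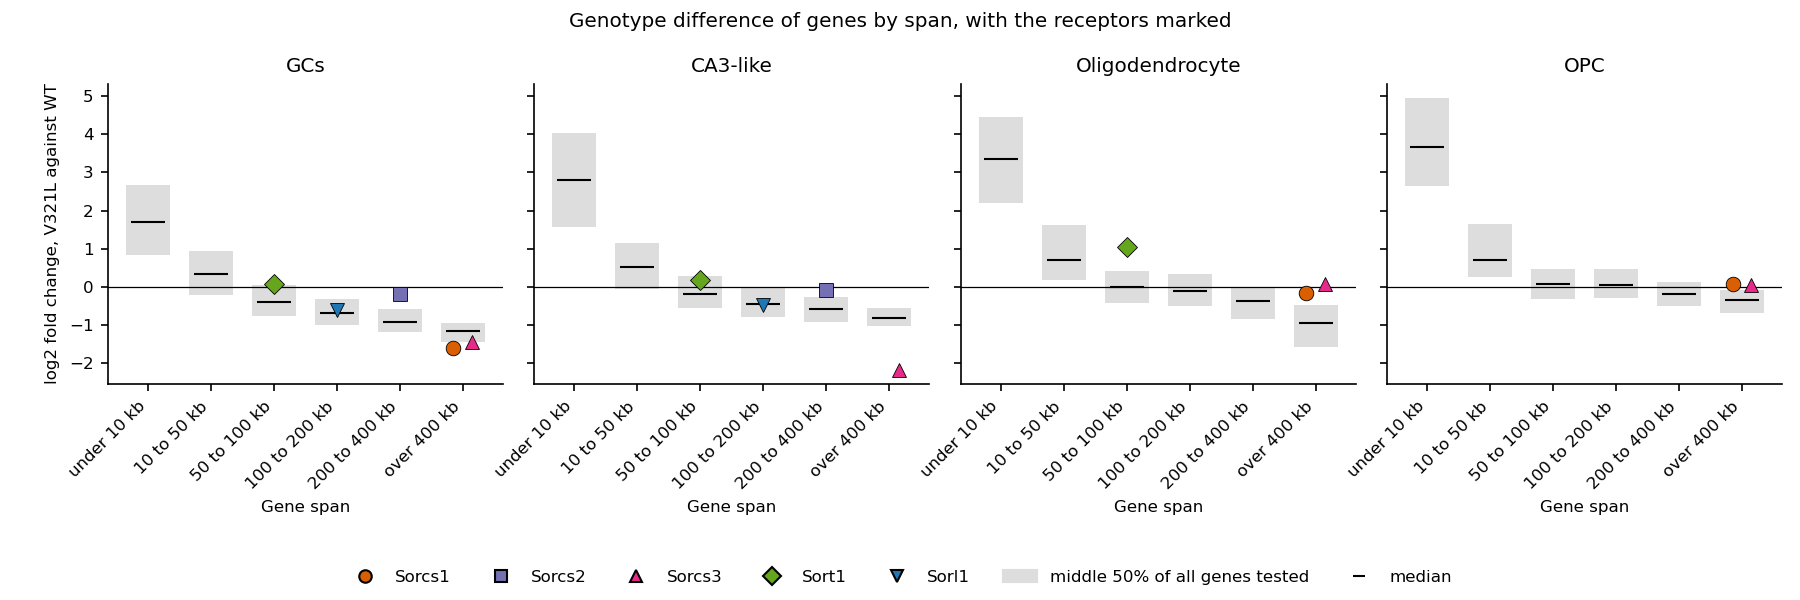
Log2 fold change of V321L against WT (vertical axis) by gene span in kb (horizontal axis, 6 bins) in GCs, CA3-like neurons, oligodendrocytes and OPCs, with the middle 50% of all tested genes in grey, their median as a line and the members marked. In GCs the median falls from 1.70 to -1.15 and *Sorcs2* lies above its bin, while in oligodendrocytes and OPCs *Sorcs1* and *Sorcs3* lie above the median of theirs.

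The share of GCs with a UMI of a member followed depth. Without a correction it was 2.70% ± 0.755 in WT and 2.29% ± 0.431 in V321L mice for *Sorcs1* (by a two-sided exact permutation test, p = 0.371), and 9.89% and 11.9% for *Sorcs3*. It was 11.0% and 23.1% for *Sorcs2*, 22.2% and 53.1% for *Sort1* and 29.5% and 48.6% for *Sorl1* (exact permutation p = 0.0286 each, the smallest that 4 against 4 mice allow). GCs with fewer than 1000 UMIs were then dropped and the others thinned to 1000. This left 807 to 1863 GCs per WT mouse, of 1361 to 2556, and 791 to 1192 per V321L mouse, of 804 to 1204. The WT GCs left were thus the deeper ones. After thinning the *Sorcs1* share was 1.66% ± 0.367 in WT and 0.697% ± 0.277 in V321L mice, with p = 0.0286 by the exact permutation test. The *Sorl1* share was then 19.0% and 16.1% and the *Sort1* share 13.5% and 19.2% (exact permutation p = 0.0286 each), and for *Sorcs2* 6.19% and 6.71% (exact permutation p = 0.543). *Sorcs3* had 6.56% and 4.29%. The rise in the *Sorl1* and *Sorcs3* shares before thinning was thus reversed at equal depth, and that of *Sorcs2* was no longer larger than the spread. Thinned to 500 UMIs, none of *Sorcs1*, *Sorcs2*, *Sort1* and *Sorl1* had a p under 0.05, with the *Sorcs1* share at 0.722% and 0.338% (exact permutation p = 0.114). These p-values are not adjusted for the 5 genes.

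Where a UMI is found, it can be spread evenly over nuclei or gathered in a few. If each GC of a mouse held *Sorcs1* in proportion to its UMIs, 13.7 of the 11016 GCs would hold at least 2 UMIs, and 88 did, a ratio of 6.42 that ranged from 5.04 to 11.9 over the mice. The GC with the most *Sorcs1* had 18 UMIs. For *Sorcs2* the numbers were 426 and 288 (ratio 1.48) and for *Sorcs3* 456 and 347 (ratio 1.31), with up to 31 UMIs of *Sorcs3* in a nucleus. *Sort1* and *Sorl1* had a ratio of 1.03 each. By this ratio *Sorcs1* was gathered in few GCs, and *Sort1* and *Sorl1*, with up to 8 UMIs in a nucleus, were near an even spread. All GCs by markers are counted here, and what those outside the GC clusters add was not tested. The ratio does not rank the members, since it can be low for a gene with a high level. *Nrg1* had 0.669 with up to 81 UMIs in a nucleus. *Sorcs3* had 2678 UMIs in 1177 GCs, and *Sorcs2* 2321 UMIs in 1726 GCs, although its ratio was higher.

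Outside GCs the difference between genotypes was not the same. In oligodendrocytes *Sorcs1* had a log2 fold change of -0.15 (SE 0.279, adjusted p = 0.702) and in OPCs of 0.08 (SE 0.206, adjusted p = 0.804, edgeR), classes in which 34.4% and 24.2% of all genes were called. The effect differed from that in GCs by 1.65 in oligodendrocytes (SE 0.327, adjusted p = 8.78e-05) and by 1.41 in OPCs (SE 0.288, adjusted p = 0.000207) in an edgeR fit of the genotype by class term with mouse as a block. In those fits 3.35% and 2.20% of all genes were called. Both calls held without any mouse in turn, with a highest adjusted p of 0.0254 and 0.0220, each without V321L female 2. With library sizes alone the difference was 0.84 in oligodendrocytes (adjusted p = 0.170), at which the call was lost, and 1.07 in OPCs (adjusted p = 0.0130). In MGE-type neurons the difference was 1.19 (SE 0.426, adjusted p = 0.200, with 1.31% of genes called) and in CA1-like neurons 1.20 (SE 0.849, adjusted p = 0.781, with 0.237% called).

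For *Sorcs3*, as a description, the log2 fold change was 0.09 (SE 0.435) in oligodendrocytes, 0.05 (SE 0.232) in OPCs, 0.34 (SE 0.336) in MGE-type neurons and -0.39 (SE 0.385) in CA1-like neurons. In CA3-like neurons it was -2.19 (SE 0.346), with 112, 161, 107 and 70.3 CPM in WT mice and 23.5, 37.1 and 30.8 CPM in 3 V321L mice. V321L female 2 had 5 CA3-like nuclei and was left out of that fit. Of the genes over 400 kb in CA3-like neurons 1.77% were lower, where their median was -0.81. The log2 fold change of *Sorcs3* was thus below -1 in GCs and CA3-like neurons and between -0.39 and 0.34 in the other 4 classes. The difference of the effect from that in GCs was 1.65 in oligodendrocytes, 1.14 in OPCs, 1.42 in MGE-type neurons, 0.83 in CA1-like neurons and -1.08 in CA3-like neurons, where 0.265% of all genes were called.

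*Sort1* was higher in V321L oligodendrocytes and astrocytes. In oligodendrocytes WT mice held 260, 158, 0 and 243 CPM, the 0 from 12 nuclei, and V321L mice 377, 358, 318 and 355 CPM, with no overlap. The log2 fold change was 1.03 (SE 0.334, adjusted p = 0.0245, edgeR), where 34.4% of genes were called, and the call was lost without WT female 2 (0.88, adjusted p = 0.120). In astrocytes and radial glia WT mice held 126, 77.2, 131 and 62.5 CPM and V321L mice 176, 158, 176 and 154 CPM, again with no overlap. The log2 fold change was 0.98 (SE 0.273, adjusted p = 0.00803), where 44.7% of genes were called, and the call was lost without WT female 2 (0.83, adjusted p = 0.0573) or WT male 2 (0.72, adjusted p = 0.0648). The effect was not shown to differ from that in GCs, with differences of 1.04 (adjusted p = 0.112) and 0.69 (adjusted p = 0.234, with 6.39% of genes called). *Sorl1* in astrocytes had -0.53 (SE 0.219, adjusted p = 0.0620) and *Sorcs2* 0.58 (SE 0.370, adjusted p = 0.215). In CA1-like, CA3-like and MGE-type neurons and in microglia, where WT male 1 had 2 nuclei and was left out, none of *Sorcs1*, *Sorcs2*, *Sort1* and *Sorl1* passed where it could be tested, with 30.5%, 47.3%, 28.4% and 18.2% of genes called. In microglia *Sort1* had 0.72 (SE 0.629, adjusted p = 0.512), which differed from GCs by 1.12 (adjusted p = 0.469, with 1.27% of genes called).

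In females *Sorcs1* had a log2 fold change of -1.78 (SE 0.381) in GCs and in males of -1.46 (SE 0.350). *Sorl1* had -0.73 (SE 0.130) and -0.48 (SE 0.190). With 2 mice of a sex and genotype, the genotype by sex term had an adjusted p of at least 0.993 for *Sorcs1*, *Sorcs2*, *Sort1* and *Sorl1* (edgeR). A difference between the sexes was thus not detectable here.

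In single GCs some members occurred together more or less often than depth alone gives. Each pair was compared by the odds ratio of finding both in the same GC, within 10 strata of UMIs per mouse, so that depth does not by itself create a positive value. *Sorcs1* and *Sorcs3* were found together in 129 GCs, where 37.7 would be found by strata alone. The odds ratio was 10.6, 6.73, 8.66 and 4.59 in the WT mice and 4.399, 7.31, 15.3 and 4.09 in the V321L mice, above 1 in 8 of 8, with a geometric mean of 6.99. With at least 2 UMIs required of each gene the mean log2 odds ratio rose from 2.81 to 4.00.

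*Sorcs3* and *Sorl1* went the other way. They were found together in 393 GCs, where 499 would be found by strata, with a geometric mean odds ratio of 0.629 that was above 1 in 1 of 8 mice. *Sorcs2* and *Sorcs3* met in 164 GCs instead of 223, with an odds ratio of 0.659 that was above 1 in 1 of 8 mice. *Sorcs2* and *Sorl1* met in 895 GCs against 832 by strata, with 1.18 and 7 of 8 mice above 1. With GCs of at least 1000 UMIs thinned to 1000 in place of strata, *Sorcs3* with *Sorl1* stayed at 0.721, above 1 in 1 of 8 mice. *Sorcs2* with *Sorcs3* then had 0.962, above 1 in 4 of 8, from 30 GCs against 32.2, and *Sorcs2* with *Sorl1* turned to 0.935, above 1 in 5 of 8, so neither pair kept a direction at equal depth. *Sort1* met the others about as often as by strata, with 0.789 for *Sorcs1*, 0.890 for *Sorcs2*, 1.03 for *Sorcs3* and 0.981 for *Sorl1*. *Sorcs1* with *Sorl1* (0.681) and with *Sorcs2* (0.622) were above 1 in 4 and 3 of 8 mice, and with 2.60% of GCs holding *Sorcs1* no order can be read from them. Within strata none of the pairs without *Sorcs3* differed between genotypes beyond the spread over mice (two-sided exact permutation test, smallest p = 0.171, adjusted over all 10 pairs 0.571). Thinned to 1000 UMIs, *Sorcs2* with *Sorl1* had a mean log2 odds ratio of -0.66 ± 0.81 in WT and 0.46 ± 0.17 in V321L mice. The exact permutation p was 0.0286 (adjusted p = 0.286), so its value over all 8 mice joins groups of opposite sign.

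**Figure D4:**
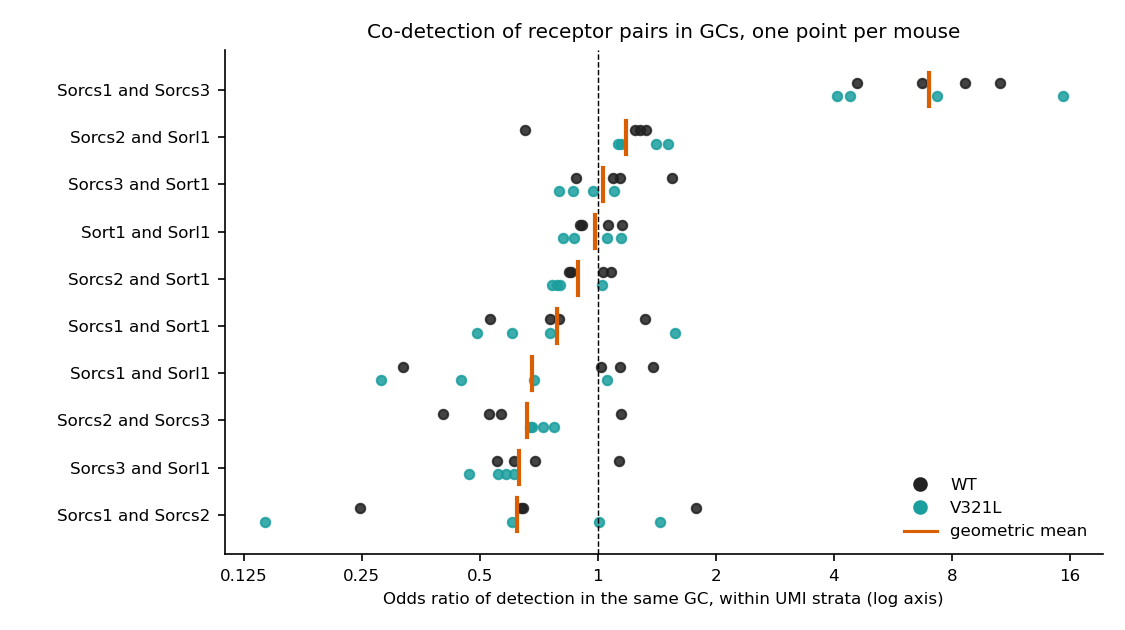
Odds ratio of finding both members of a pair in the same GC (horizontal log axis), for 10 pairs, with 1 point per mouse coloured by genotype and a line at 1. *Sorcs1* with *Sorcs3* lies above 1 in all 8 mice, between 4.09 and 15.3, and *Sorcs3* with *Sorl1* and with *Sorcs2* below 1 in 7 of 8, the last in 4 of 8 when GCs are thinned to 1000 UMIs.

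With *Penk*, as a description, *Sorcs1* and *Sorcs3* were again apart from the others. The odds ratio was 6.33 for *Sorcs3* and 5.18 for *Sorcs1*, each above 1 in 8 of 8 mice. It was 0.466 for *Sorcs2*, above 1 in 0 of the 7 mice with a value, 0.566 for *Sorl1*, above 1 in 1 of 8, and 0.750 for *Sort1*, above 1 in 2 of 8. Thinned to 1000 UMIs, *Sorcs2* had 1.25 in 3 mice with a value, from 4 GCs with both, so its direction is not settled.

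GCs with a UMI of a member were then compared with as many GCs without it from the same UMI strata of the same mouse, in an edgeR fit with mouse as a block and the member itself left out. These comparisons draw on the same GCs and are set side by side. For *Sorcs3*, with 1177 GCs, 804 genes were called of 6202 tested (13.0%), 407 higher and 397 lower. For *Sorcs1*, with 286 GCs, 234 of 2286 were called (10.2%), 126 higher and 108 lower. For *Sorcs2*, with 1726 GCs, 402 of 7939 were called (5.06%), 219 higher and 183 lower, and for *Sorl1* 168 of 9560 (1.76%), 75 higher and 93 lower. For *Sort1* 4 of 9623 were called (0.0416%), with 530 at an unadjusted p under 0.05, although more GCs held it than held *Sorcs3*. Fewer genes can be tested where fewer GCs hold the member, so the counts are no ranking.

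GCs with *Sorcs1* were higher in *Lhfpl3*, a gene known from OPCs, at 170 against 21.0 CPM (log2 fold change 3.09, SE 0.290, adjusted p = 1.97e-12, edgeR, higher in 8 of 8 mice). *Sorcs3* was the next, at 562 against 76.0 CPM (2.62), followed by the metabotropic glutamate receptor gene *Grm8* at 315 against 58.9 CPM (2.36), *Cntn4* at 274 against 58.2 CPM (2.17) and the ephrin gene *Efna5* at 162 against 57.8 CPM (1.49). *Nrg1* was at 1762 against 616 CPM (1.47) and the neurotrophin gene *Bdnf* at 281 against 113 CPM (1.32), each higher in 8 of 8 mice. The largest falls in every mouse were in the protocadherin gene *Pcdh19* (-1.21), *Adamts17* (-0.93) and the malic enzyme gene *Me3* (-0.92).

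GCs with *Sorcs3* were higher in *Mir670hg* (3.10), *Sorcs1* (3.08, 71.4 against 8.15 CPM), *Lhfpl3* (2.58) and *Elmo1* (2.49), and, as a description, in *Penk* (2.55, 60.2 against 10.5 CPM). *Nrg1* stood at 1600 against 464 CPM (1.77, SE 0.0708) and *Bdnf* at 268 against 98.2 CPM (1.45), both higher in 8 of 8 mice, and the neurotrophin receptor gene *Ntrk2* at 364 against 250 CPM (0.50). *Sorl1* was lower, at 145 against 217 CPM (-0.62, SE 0.0898, adjusted p = 6.83e-08, edgeR, lower in 8 of 8 mice). The largest falls were in *Ror1* (-1.42), *A230077H06Rik* (-1.33) and the GDNF family receptor gene *Gfra2* (-1.27).

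GCs with *Sorcs2* were higher in *Moxd1* (1.10), *Zfp462* (0.99), *Pmepa1* (0.78), *Hrk* (0.75) and the formin gene *Inf2* (0.73), and slightly in *Sorl1*, at 214 against 192 CPM (0.22, adjusted p = 0.0281, higher in 6 of 8 mice). *Nrg1* was lower, at 478 against 689 CPM (-0.57), and so was *Bdnf*, at 96.5 against 127 CPM (-0.40). The largest falls were in *9530026P05Rik* (-1.17), *Galntl6* (36.5 against 67.2 CPM) and *Mpp7* (-0.89).

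GCs with *Sorl1* had a like pattern of smaller size. *Olfml2b* (0.45), *Hectd2* (0.43), *Matn2* (0.37), the channel gene *Trpc5* (0.36) and *Npnt* (0.29) were higher, and *Sorcs2* stood at 79.3 against 70.2 CPM (0.28, adjusted p = 0.0458). *Sorcs3* was lower, at 68.2 against 112 CPM (-0.67, SE 0.0770, lower in 8 of 8 mice), as were *Nrg1* (-0.50), *Bdnf* (-0.38), *Sgcz* (-0.74) and *Tspan15* (-0.79). For *Sort1* the 4 genes called, named after their values were seen, were *Mast4* (-0.17), *Hectd2* (-0.21), *Nrxn3* (0.13) and *Gm42418* (0.12), all small.

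Set side by side, *Grm8* stood at 2.36 with *Sorcs1* and 2.17 with *Sorcs3*, and at -0.39 with *Sorcs2* and -0.46 with *Sorl1*. *Trpc5* stood at -0.78 and -1.09 with *Sorcs1* and *Sorcs3*, and at 0.35 and 0.36 with *Sorcs2* and *Sorl1*. *Hectd2* stood at -0.51 and -0.70, and at 0.71 and 0.43. *Matn2* was at -1.19 with *Sorcs3*, 0.38 with *Sorcs2* and 0.37 with *Sorl1*, and it was not tested with *Sorcs1*. These genes were picked after their values were seen, and not every named gene parted this way. *Mir670hg* stood at 3.10 with *Sorcs3* and also at 0.63 with *Sorcs2* (adjusted p = 0.0377, edgeR). *Cntn4* stood at 2.17 with *Sorcs1*, 0.94 with *Sorcs3*, 0.28 with *Sorcs2* and -0.13 with *Sorl1*, the last 2 not called.

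**Figure D5:**
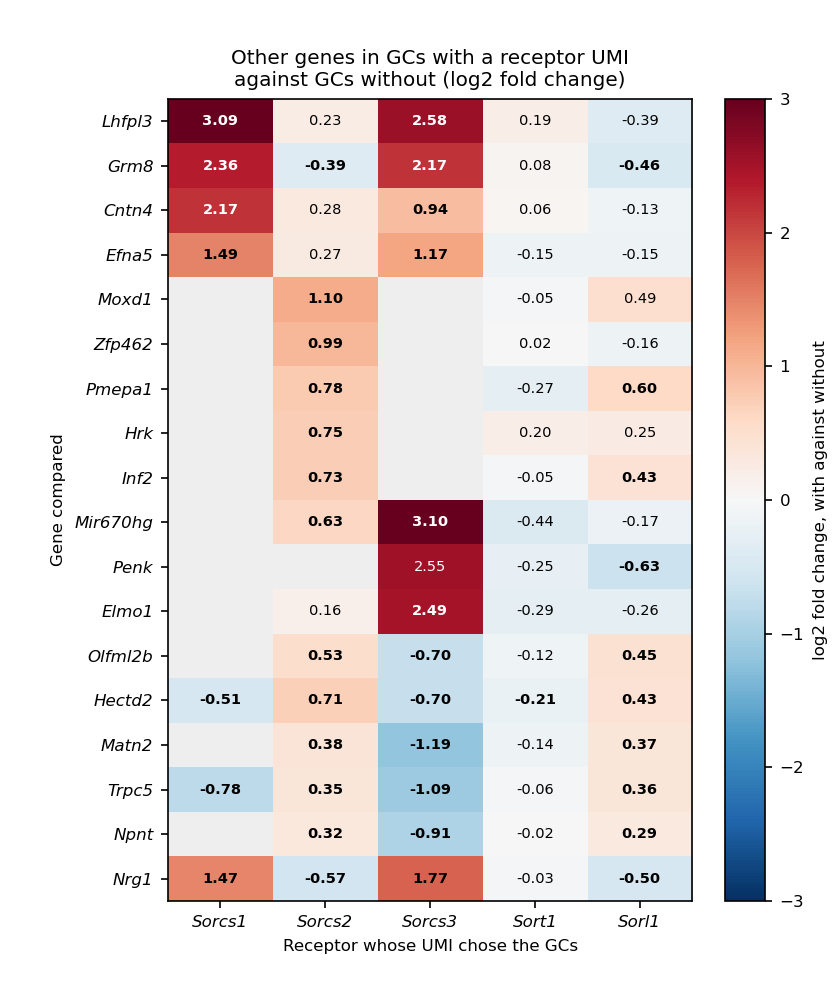
Log2 fold change of named genes (rows) in GCs with a member against GCs without it (columns, 1 per member), with the value in each cell, bold where the edgeR adjusted p is under 0.05 and grey where not tested. *Penk* and *Sorcs3* are shown as a description, and *Nrg1* is higher with *Sorcs1* (1.47) and *Sorcs3* (1.77) and lower with *Sorcs2* (-0.57) and *Sorl1* (-0.50).

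The same comparison in separate mice shows how far these lists met. In WT mice alone 94 genes were higher and 63 lower in GCs with *Sorcs1*, and in V321L mice alone 248 were higher and 231 lower in GCs with *Sorcs3*. Both lists held 51 of the higher genes (54.3% of the *Sorcs1* list, 20.6% of the *Sorcs3* list) and 49 of the lower genes (77.8% and 21.2%), and 1 gene had opposite calls. Of all genes tested in WT mice alone 6.18% were called for *Sorcs1*, 1.49% for *Sorcs2*, 7.42% for *Sorcs3*, 0.0129% for *Sort1* and 0.325% for *Sorl1*. In V321L mice alone it was 3.04%, 3.95%, 6.72%, 0% and 1.16% in that order, the 0% beside 587 genes of *Sort1* at an unadjusted p under 0.05 (edgeR). Between *Sorcs3* in WT mice and *Sorl1* in V321L mice no gene was shared in the same direction, while 45 genes were higher with *Sorcs3* and lower with *Sorl1* and 35 the reverse. Between *Sorcs3* in WT mice and *Sorcs2* in V321L mice 5 and 1 genes were shared in direction, and 69 and 73 were opposite. *Sorcs2* in WT mice and *Sorl1* in V321L mice shared 18 of 41 and 55 higher genes (43.9% and 32.7%) and 13 of 45 and 65 lower genes (28.9% and 20%), with 0 opposite.

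Markers of other cells moved with some of these comparisons. In GCs with *Sorcs1* the 9 oligodendrocyte markers summed to 814 CPM (417 to 1703 over mice) against 472 CPM (286 to 601) without it, higher in 5 of 8 mice. The 6 OPC markers summed to 193 CPM (106 to 367) against 32.4 CPM (0 to 52.4), higher in 8 of 8. Of the OPC markers *Lhfpl3* gave 193 UMIs against 21 and *Vcan* 17 against 11. The defining *Pdgfra* gave 4 against 1, *Cspg4* 1 against 0, *C1ql1* 1 against 1 and *Gpr17* 0 against 0. The 10 GC markers summed to 5146 against 5952 CPM. GABAergic markers summed to 81.6 against 40.6 CPM, and astrocyte and radial glia markers to 147.5 against 115 CPM, each higher in 7 of 8 mice. Cajal-Retzius markers stood at 17.5 against 0.605 CPM, higher in 4 of 8. CGE-type markers were lower on average, at 1482 against 1765 CPM, and higher in 2 of 8. In GCs with *Sorcs3* the OPC list summed to 101 against 21.4 CPM. *Lhfpl3* gave 349 against 57 UMIs there, *Vcan* 23 against 18 and *Cspg4* 4 against 0. *Pdgfra* gave 2 against 2, *C1ql1* 0 against 3 and *Gpr17* 0 against 0. The oligodendrocyte list summed to 551 against 463 CPM, higher in 6 of 8 mice, the list of GABAergic markers to 61.1 against 41.5 CPM, higher in 8 of 8, and the GC list to 5454 against 6016 CPM, higher in 0 of 8. When only GCs that clusters also called GCs were used, 260 of 2100 genes tested were called for *Sorcs1* and 870 of 6203 for *Sorcs3*.

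ATAC counts were also compared between GCs with and without the RNA of a member. Here all GCs of a mouse were used on both sides, without equal numbers and without UMI strata. Over the span of *Sorcs3* GCs with its RNA had 139 ± 25.6 ATAC CPM and GCs without it 75.1 ± 15.9, higher in 8 of 8 mice (two-sided exact sign-flip permutation test, p = 0.00781, the smallest that 8 mice allow). Over 25 such comparisons, of 5 genes in RNA by 5 loci, this did not pass adjustment (adjusted p = 0.195). At its start site the values were 25.4 ± 17.1 and 13.0 ± 7.43, higher in 7 of 7 mice with a peak. Over the *Sorcs3* span GCs with *Sorcs1* RNA had 113 against 81.2 ATAC CPM, higher in 6 of 8 mice (exact permutation p = 0.0469). GCs with *Sorcs2* RNA had 73.9 against 84.97 and those with *Sorl1* RNA 78.4 against 85.3 there, each higher in 1 of 8 mice (exact permutation p = 0.0234 and 0.0391). None of the 3 passed adjustment (adjusted p = 0.293 each). Over its own span *Sorcs1* had 61.5 against 36.8 ATAC CPM, higher in 6 of 8 mice (exact permutation p = 0.0781). *Sort1* and *Sorl1* showed little, with 108 against 106 and 162 against 164 ATAC CPM over their own spans. *Sorcs2* had 247 against 230 over its own, higher in 6 of 8 mice.

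Between genotypes no difference at the start sites passed the test. *Sorcs1* had 5.70 ± 1.36 ATAC CPM in WT GCs and 6.72 ± 2.33 in V321L GCs, *Sorcs2* 21.9 ± 2.60 and 24.9 ± 3.84, *Sort1* 40.6 ± 4.00 and 37.0 ± 8.65, and *Sorl1* 27.1 ± 0.931 and 32.3 ± 10.8. *Sorcs3* had 9.18 ± 1.10 in 3 WT mice and 18.4 ± 9.89 in 4 V321L mice, a higher mean where its RNA was lower. The smallest p of the 5 two-sided exact permutation tests was 0.200. With the WT mouse without a peak counted as 0, *Sorcs3* had 6.88 in WT mice (exact permutation p = 0.0571, adjusted p = 0.286), and with 2 kb each side 12.6 and 24.98 ATAC CPM (exact permutation p = 0.0571). Without V321L female 1 the difference at *Sorcs3* fell from 9.25 to 4.98 ATAC CPM. The precision is set by sparse counts, as 1.29% of WT and 1.81% of V321L GCs had a count at the start of *Sorcs1*.

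Of 38 genes of the pathway 32 could be tested between genotypes in GCs. With TMM 14 were higher and 11 lower in V321L mice, where 38.6% of all genes were higher and 31.8% lower, so most genes of any list are called here. The list had a median log2 fold change of 0.36 beside 0.11 over all genes, and the shift between scalings applies to them too. In CPM, which follow library sizes, *App* (494 in WT and 515 in V321L mice), *Snx2* (69.5 and 72.1), *Pacs1* (101 and 109), *Vps26a* (23.5 and 24.9), *Vps26b* (25.3 and 30.02) and *Snx1* (36.9 and 45.8) were higher in V321L mice, so the direction of these 6 turns with the scaling. Among ligands, 2 of 6 tested were higher and 1 lower: prosaposin (*Psap*) had 0.95 and the neurotrophin *Ntf3* 0.64, the amyloid precursor gene *App* -0.38, and *Bdnf* 0.12 (adjusted p = 0.375, edgeR). Both tested co-receptors were lower, *Ntrk3* at -1.02 and *Ntrk2* at -0.55, while *Ngfr*, which encodes p75 and is the partner of sortilin and *Sorcs2*, was too low to test. Of 14 sorting adaptor and retromer genes 7 were higher and 5 lower, among them the retromer core gene *Vps35* at -0.49, *Snx27* at -0.65, *Snx2* at -0.39 and *Pacs1* at -0.35. Of 6 proteases that shed or cut the receptors and their cargo, 2 were higher and 2 lower, with *Adam10* at -0.86, *Adam17* at -0.46 and *Ncstn* at 0.79. The list also held 4 genes of other sorting receptors or, for *Lrpap1*, of a receptor-associated protein. Of these 3 were higher, *Lrpap1* at 2.37, *Lrp1* at 1.08 and *M6pr* at 0.92, and *Igf2r* was lower at -0.77. The counts by role are to be read against the same shares of all genes.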

How the data were processed

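The authors deposited, for each of the 8 Multiome libraries, a matrix of raw counts, namely RNA UMI counts of 32285 genes and ATAC counts in peaks called in that library, for all barcodes. The matrix headers name Cell Ranger ARC 2.0.2, and the submitters' processing notes name Cell Ranger, Seurat, Signac and the build mm10. Positions and sequences are from RefSeq GRCm38.p6, the same build.

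Barcodes were kept as nuclei with at least 500 UMIs, 250 genes and 500 ATAC counts and under the upper limits of UMIs, genes and mitochondrial share that the study set, and doublet scores above the library mean by 2 SD were removed, which took out between 49 and 162 barcodes per mouse. Each nucleus was placed in a class from its marker UMIs with a posterior of at least 0.9. Clusters (scanpy 1.11.5, leidenalg 0.10.2, 3000 variable genes, 50 components, resolution 1) served as a second definition of GCs. RNA UMIs ranged from 4326426 to 14624265 in WT and from 15505354 to 23582057 in V321L libraries. ATAC counts ranged from 11953480 to 18352660 and from 6580616 to 25552770.

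Counts were summed per class and mouse and tested in R 4.3.3 with edgeR 4.0.16 (quasi-likelihood test, TMM, filterByExpr, Benjamini-Hochberg adjustment over all genes at 0.05), with DESeq2 1.42.0 as a second tool. Shares and odds ratios were compared over mice by two-sided exact permutation tests. The genotypes share replicate labels (F1, F2, M1, M2), but only the F2 pair of same-numbered mice had a correlation of deviations over 0.1 (0.034, 0.272, -0.119 and 0.043), so the numbers were not taken to pair mice. The main edgeR fits and the odds ratio were first run on simulated data. The permutation and sign-flip tests were checked on made-up numbers with known answers. Python 3.11.15, numpy 2.4.6 and scipy 1.17.1 were used for the rest. Labels name the mice as separate samples, and counting intervals cover counting error only.

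The members, the marker lists and the pathway list were chosen with earlier results of these data known. Named were all members, the 3 genes most like each over class sums, the 5 genes with the largest rise among those called and higher in every mouse with a member, up to 4 pathway genes per role with the highest GC level (some of which are not reported here), and *Penk*, *Nrg1* and *Nptx2*. The genes with the largest fall, *Ntrk2*, *Bdnf* and the genes set side by side in GCs with a member were added after their values were seen. Trajectories, imaging and electrophysiology were not analysed here.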

Additional observations from a re-analysis of the deposited data

Results flagged for a closer look

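Of 115 sets of 4 mice examined, 8 had a mouse far from the other 3 by Dixon's criterion, and chance alone gives about 1 in 20. In CA3-like neurons of WT mice *Sorcs1* was at 44.2 CPM in female 1 and *Sorcs2* at 14.6 CPM in male 2, apart from the other 3. In WT OPCs *Sorl1* was at 194 CPM in male 1, from 3 UMIs. In V321L astrocytes and radial glia *Sorcs2* was at 255 CPM in male 1. In WT GCs the ATAC level at the start of *Sorl1* was 28.5 ATAC CPM in female 2, and the odds ratio of *Sorcs2* with *Sorl1* was 0.651 in male 1. In V321L GCs the share with a UMI of *Sorcs1* was 2.94% in female 1, and the odds ratio of *Sorcs2* with *Sort1* was 1.02 in male 1.

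The genotype effect on *Sorcs1* differed between classes by a test of the difference itself. It was higher by 1.65 on the log2 scale in oligodendrocytes and by 1.41 in OPCs than in GCs (edgeR), as given in the report, and *Sorcs1* had 15.7 CPM in GCs and 734 and 796 CPM in the other 2 classes.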

How the results depend on the processing

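Library sizes in place of TMM, which moved the median over all GC genes from 0.11 to 0.55, changed 2 calls there: *Sort1* became 0.52 and *Sorl1* -0.15. They also ended the call for the difference from GCs of *Sorcs1* in oligodendrocytes (0.84), and, as descriptions, lowered that of *Sorcs3* to 0.84 in oligodendrocytes and 0.79 in OPCs. Without 1 mouse in turn, *Sort1* stayed between 0.72 and 1.13 in astrocytes and between 0.88 and 1.19 in oligodendrocytes, with the calls lost as named in the report, and the difference of *Sorcs3* from GCs stayed between 1.14 and 1.65 in MGE-type neurons and between 1.42 and 2.34 in oligodendrocytes. Other fits in GCs, namely DESeq2, no filter, sex, thinning, doublets, limits and clusters, kept the direction of the 5 members. Apart from *Sorcs3*, which is a description, the members also kept the side of the threshold. Between 6144 and 10174 genes were called over all alternatives.

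The difference in the share of GCs with a UMI, in percentage points of V321L minus WT, was most open to depth. Thinned to 1000 UMIs it was -0.959 for *Sorcs1*, 0.527 for *Sorcs2*, -2.94 for *Sorl1* and, as a description, -2.27 for *Sorcs3*. Thinned to 500 UMIs it was -0.384 for *Sorcs1*, 1.25 for *Sorcs2*, 2.53 for *Sort1* and -1.16 for *Sorl1*, none of which passed. *Sorcs3* then had -1.07, as a description. Without 1 mouse in turn it lay between 10.5 and 14.1 for *Sorcs2*, 27.8 and 34.0 for *Sort1* and 16.2 and 21.7 for *Sorl1*, and passed after adjustment only without V321L female 1 or V321L male 2 (adjusted p = 0.0476). The mean log2 odds ratio of *Sorcs1* with *Sorcs3* was 4.00 with at least 2 UMIs. Under other settings 16 values of co-detection moved by over 1 SD and 44 did not. Thinned to 1000 UMIs, *Sorcs1* with *Sorcs2*, *Sort1* and *Sorl1*, and *Sorcs2* with *Sorl1* and *Penk*, changed sign, as did *Sorcs2* with *Sort1*, *Sort1* with *Penk* and *Sorcs1* with *Sorcs2*, *Sort1* and *Sorl1* with at least 2 UMIs, and *Sorcs3* with *Sort1*, near 1 throughout, under both. The *Sorcs2* order of classes changed as given in the report, and the *Sorcs3* level of CGE-type neurons was 979 CPM when thinned. With classes from clusters CA3-like neurons held 3.86 CPM of *Sorcs1* and 155 CPM of *Sorl1*, against 16.7 and 100 CPM by markers.

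With all GCs without a member, in place of an equal number, more genes could be tested. For *Sorcs1* 507 of 8529 tested were called, for *Sorcs2* 811 of 10319 and for *Sorcs3* 1286 of 9390. For *Sorl1* it was 490 of 10475 and for *Sort1* 2 of 10405. In WT mice alone 86 of 5760 were called for *Sorcs2*, 404 of 5448 for *Sorcs3*, 26 of 8004 for *Sorl1* and 1 of 7735 for *Sort1*. In V321L mice alone it was 77 of 2536 for *Sorcs1* and 479 of 7133 for *Sorcs3*. For *Sort1* it was 0 of 10485 by edgeR, with 587 at an unadjusted p under 0.05. These fits hold fewer or more nuclei by construction.

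With a replicate block, although the numbers were not shown to pair mice, 8556 genes were called in place of 8690. The members then had -1.64 (*Sorcs1*), -0.16 (*Sorcs2*), 0.09 (*Sort1*) and -0.59 (*Sorl1*), with no call changed, and, as a description, -1.41 (*Sorcs3*). Depth limits the rare *Sorcs1* most, at 286 GCs. Classes from 5 or fewer mice, CGE-type and vascular among them, have no test between genotypes.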
